A study of Homo sapiens with 16 samples.

Results

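The 6 BMAL1 peak lists of parental U2OS cells, a human osteosarcoma line, are described here, with collection times labelled 0, 4, 8, 12, 16 and 20 h. They were chosen by line and antibody from the labels, and they are 6 of the series' 16 samples, or 6 of the 13 that have a peak list, with 19635 of 58586 deposited peaks. Binding was read by chromatin immunoprecipitation followed by sequencing, in which formaldehyde-fixed, sonicated chromatin is pulled down with an antibody and places with many fragments are called as peaks. All 6 cultures were given 200 nM dexamethasone, a glucocorticoid that brings the clocks of a culture into a common phase. Collection began 4 h before the minimum of a luciferase reporter driven by the BMAL1 promoter and went on in steps of 4 h. Each time had 1 library, so no value has a replicate error and differences between times also hold the differences between libraries. The times 8 and 12 h are called the low times because their lists were the shortest, and their peak number is therefore given as a description with no test. The pooled input library was not analysed here.

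BMAL1 is a transcription factor that binds DNA as a pair with CLOCK or its relative NPAS2. The pair recognises the E-box, CACGTG in its canonical form, which reads the same on both strands. Its known targets include its own repressors, the PER and CRY proteins, and NR1D1 and NR1D2, which repress the BMAL1 gene. This feedback makes BMAL1 occupancy of DNA rise and fall over the day, while the clock genes themselves are the sites where it binds most strongly in many tissues.

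The promoter sequences printed here were picked among windows that overlapped a peak and hold the E-box. They are RefSeq windows of 300 bases on build GRCh38.p14, with 250 bases before and 50 after a start site, written in the direction of the gene. The E-box CACGTG is in capitals. The position given for it is that of its first base relative to the start site, and it reads the same on both strands. The first 4 belong to clock genes whose promoter window overlapped a peak at all 6 times, low times included: PER1 (chr17:8152355-8152654, minus strand, E-box at -173), BHLHE40 (chr3:4979187-4979486, plus strand, E-box at -245), NR1D2 (chr3:23945871-23946170, plus strand, E-boxes at -155 and -105) and TEF (chr22:41381692-41381991, plus strand, E-box at -193).
PER1: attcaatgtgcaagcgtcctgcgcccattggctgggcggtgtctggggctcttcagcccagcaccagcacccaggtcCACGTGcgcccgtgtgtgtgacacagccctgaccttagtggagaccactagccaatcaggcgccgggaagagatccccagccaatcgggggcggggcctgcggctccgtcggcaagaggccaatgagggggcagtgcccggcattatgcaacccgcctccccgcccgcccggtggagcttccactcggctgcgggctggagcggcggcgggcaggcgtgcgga
BHLHE40: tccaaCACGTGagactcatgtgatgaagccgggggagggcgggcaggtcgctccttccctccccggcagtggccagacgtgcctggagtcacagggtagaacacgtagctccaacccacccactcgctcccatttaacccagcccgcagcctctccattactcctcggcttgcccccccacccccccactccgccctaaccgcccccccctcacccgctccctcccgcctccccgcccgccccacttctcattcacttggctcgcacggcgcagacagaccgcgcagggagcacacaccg
NR1D2: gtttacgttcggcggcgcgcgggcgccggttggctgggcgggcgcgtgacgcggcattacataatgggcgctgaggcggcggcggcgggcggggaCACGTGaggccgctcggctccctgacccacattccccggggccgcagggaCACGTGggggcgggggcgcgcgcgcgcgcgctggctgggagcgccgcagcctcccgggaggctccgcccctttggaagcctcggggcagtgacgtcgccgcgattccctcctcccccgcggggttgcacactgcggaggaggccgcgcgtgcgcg
TEF: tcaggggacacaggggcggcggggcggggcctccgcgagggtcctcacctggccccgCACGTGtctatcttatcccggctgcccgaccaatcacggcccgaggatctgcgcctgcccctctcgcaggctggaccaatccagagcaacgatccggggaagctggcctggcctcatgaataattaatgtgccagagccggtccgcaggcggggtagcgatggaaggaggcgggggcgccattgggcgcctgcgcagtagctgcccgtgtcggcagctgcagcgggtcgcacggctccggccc

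The next 3 windows overlapped a peak at 0, 4, 16 and 20 h and at neither low time: CIART (chr1:150282304-150282603, plus strand, E-boxes at -129, -71 and -57), LIN52 (chr14:74084706-74085005, E-box at -1) and DGLUCY (chr14:91113823-91114122, E-box at -11). CIART encodes CHRONO, a repressor of BMAL1 and CLOCK, LIN52 a subunit of the DREAM complex of cell cycle genes, and DGLUCY a D-glutamate cyclase. The windows of both kinds held the E-box in 1 to 3 copies. They were picked for holding it, so its presence in both kinds was fixed by the choice.
CIART: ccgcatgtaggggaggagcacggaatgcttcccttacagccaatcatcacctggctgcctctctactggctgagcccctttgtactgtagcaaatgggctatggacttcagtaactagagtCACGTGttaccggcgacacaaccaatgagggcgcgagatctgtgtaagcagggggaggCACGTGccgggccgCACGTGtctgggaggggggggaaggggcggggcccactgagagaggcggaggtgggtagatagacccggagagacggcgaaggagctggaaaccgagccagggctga
LIN52: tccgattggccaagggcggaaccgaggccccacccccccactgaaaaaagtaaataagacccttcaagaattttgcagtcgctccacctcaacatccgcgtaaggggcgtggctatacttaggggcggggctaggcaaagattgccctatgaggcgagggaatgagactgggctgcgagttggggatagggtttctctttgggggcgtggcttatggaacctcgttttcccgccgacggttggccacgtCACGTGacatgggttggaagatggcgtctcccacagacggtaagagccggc
DGLUCY: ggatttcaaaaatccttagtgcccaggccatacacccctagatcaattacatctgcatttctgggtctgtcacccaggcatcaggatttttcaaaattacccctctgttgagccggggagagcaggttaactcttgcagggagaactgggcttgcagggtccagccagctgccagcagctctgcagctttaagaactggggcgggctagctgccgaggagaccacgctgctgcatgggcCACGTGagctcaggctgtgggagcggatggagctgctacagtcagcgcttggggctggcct

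The lists held 3397, 5287, 337, 1808, 2794 and 6012 peaks at 0, 4, 8, 12, 16 and 20 h. The 20 h list was 17.8 times as long as the 8 h list and 3.33 times as long as the 12 h list. The 16 h list was 1.55 times as long as the 12 h list. Read depth is unknown, so fewer bound loci and a shallower or less enriched library cannot be told apart from the length of a list. In chromatin from a whole culture, binding in fewer cells and weaker binding in each cell cannot be told apart either.

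Peak width separated the low times from each other and not as a pair from the rest. The median peak was 318, 328, 743, 208, 342 and 368 bp wide at 0, 4, 8, 12, 16 and 20 h. The 8 h peaks were the widest, with quartiles of 639 and 901 bp, and the 12 h peaks the narrowest, with quartiles of 180 and 278 bp. The mean of the medians was 476 ± 378 bp at the low times (SD, n = 2 libraries) and 339 ± 21.7 bp at the others (n = 4), a difference of 136 bp that did not hold up (two-sided exact permutation p = 0.67, adjusted 0.89 over 4 tests). The smallest p that 2 libraries against 4 allow is 0.13. The difference turned to -78.5 bp with the 337 highest-scoring peaks of each list, where the medians were 551, 603, 743, 332, 566 and 744 bp: the 8 h and 20 h lists were then alike in width, and 12 h stayed the narrowest. Without the 8 h library it was -131 bp, and without the 12 h library 404 bp.

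**Figure D1:**
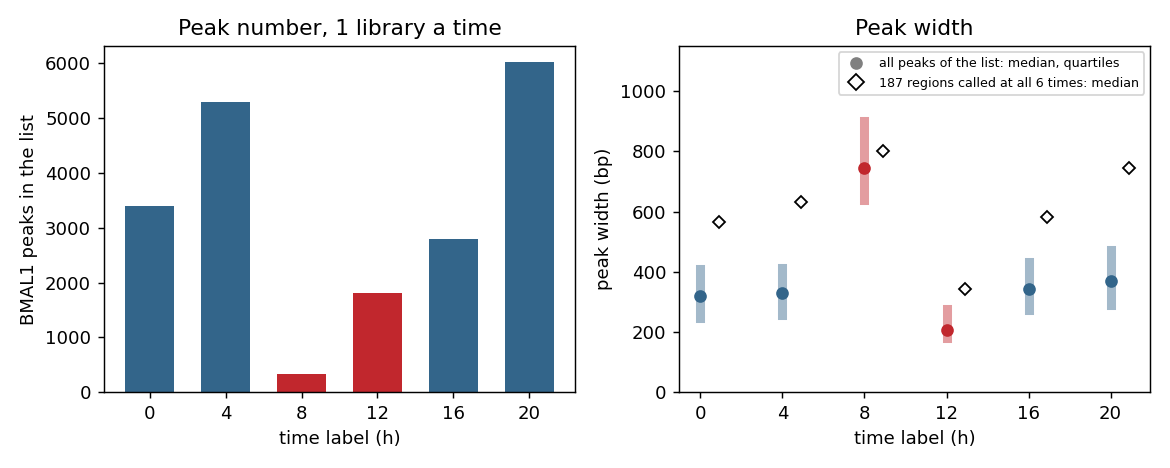
BMAL1 peaks of the 6 U2OS libraries by time label in h, with the number of peaks in each list (left), from 337 at 8 h to 6012 at 20 h. Right, peak width in bp, with the median and quartiles of each list (points and bars) and the median of the 187 regions called at all 6 times (diamonds); red marks 8 and 12 h, which lie at opposite ends of the width scale.

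The same loci showed the same spread of widths. Peaks that shared at least 1 bp were joined into 10736 regions over the 6 times, of which 187 were called at every time. In these 187 regions the median width was 566, 631, 801, 344, 582 and 744 bp at 0, 4, 8, 12, 16 and 20 h. The peak centre lay within 100 bp of the 20 h centre in 78.1, 73.3, 61.0, 69.5 and 74.3% of them at 0, 4, 8, 12 and 16 h. Since these regions were chosen for overlapping at all times, near centres are partly fixed by the choice. The share was the lowest at 8 h, where the peaks were widest.

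Which peaks of the fuller lists were also called at the low times followed their rank. Peaks were ranked within each list by the authors' score, rank 1 being the highest and equal scores sharing a mean rank. All 10 of the 10 highest peaks at 0, 4, 16 and 20 h overlapped a peak at 8 h, and all 10 overlapped a peak at 12 h. At ranks 11 to 100, the share also called at 8 h was 77.8, 82.2, 81.1 and 78.9% of the 0, 4, 16 and 20 h peaks, and at 12 h it was 100, 100, 98.9 and 98.9%. At ranks 101 to 337 the shares were 31.6, 32.1, 32.1 and 32.9% at 8 h and 92.8, 93.7, 90.7 and 90.3% at 12 h. The 8 h list thus thinned out within its own length of 337 loci, where the longer 12 h list of 1808 peaks was still nearly complete. With the 337 highest peaks of each list, 68.2 and 71.2% of those at 0 and 4 h overlapped 1 at 12 h. For 8 h these shares were 46.0 and 47.5%, so part of the contrast goes with list length.

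Further down, the 12 h list thinned out as well. At ranks 338 to 1000 the share also called was 4.68, 4.52, 5.58 and 6.03% at 8 h and 50.1, 53.8, 49.6 and 49.9% at 12 h. Beyond rank 2000 it was between 0.374 and 0.730% at 8 h and between 5.13 and 7.23% at 12 h. Taken over whole lists, 6.51, 4.39, 7.73 and 3.73% of the 0, 4, 16 and 20 h peaks were called at 8 h and 28.0, 20.2, 30.9 and 17.8% at 12 h. The 4 fuller lists gave nearly the same curve at every rank class up to 1000, with all 95% Wilson intervals overlapping. They were set against the same pair of low lists, so they are not separate evidence. These intervals, like all others here, cover counting error only.

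**Figure D2:**
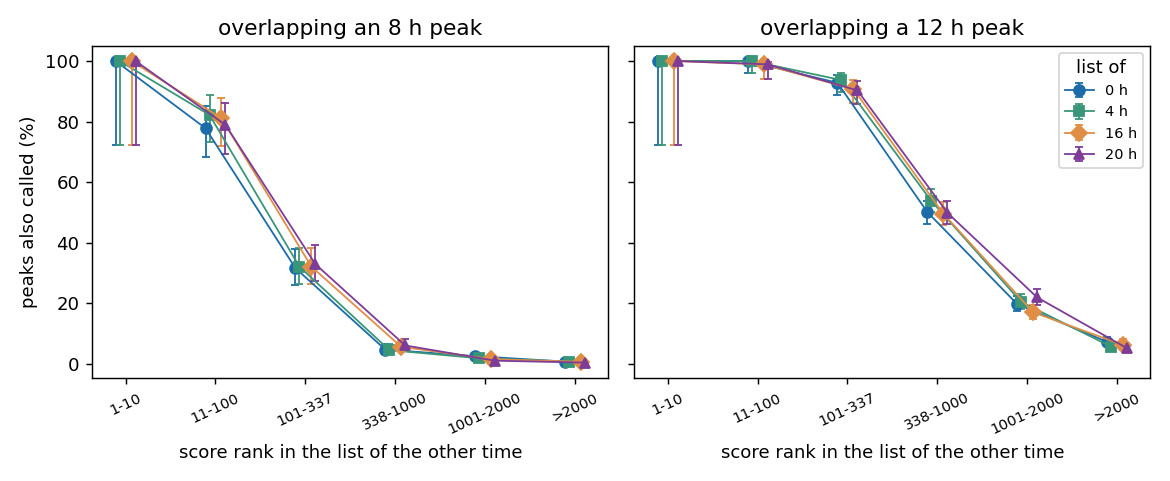
Percent of BMAL1 peaks at 0, 4, 16 and 20 h that overlapped a peak at 8 h (left) or 12 h (right), by rank of the authors' score in the list of the fuller time. Bars are Wilson 95% intervals for counting error. The 4 lists run close together, and at ranks 101 to 337 about 32.1% are called at 8 h and over 90% at 12 h. The 8 h list holds 337 peaks and the 12 h list 1808.

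The order was not strict. The highest-ranked peak with no 8 h peak over it had rank 40, 25, 29 and 51 at 0, 4, 16 and 20 h, and the highest with no 12 h peak had rank 189, 109, 63 and 85. At the other end, some loci of the lowest rank classes were called at the low times: the last 20 h peak also called at 8 h had rank 5811.5 of 6012. In the other direction, 60.2, 61.4, 58.2, 60.8 and 63.2% of the 337 peaks at 8 h were found at 0, 4, 12, 16 and 20 h. Of the 12 h peaks, 54.4, 61.2, 49.6 and 61.3% were found at 0, 4, 16 and 20 h, and 12.2% at 8 h.

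Of the 10736 regions, 6812 (63.5%) were called at 1 time only, 1654 at 2, 877 at 3, 637 at 4, 569 at 5 and 187 (1.74%) at all 6. The commonest combination of more than 1 time was 4 and 20 h, the 2 longest lists, with 669 regions. All times but 8 h came next, with 557. Regions called at 0, 4, 16 and 20 h numbered 1186 and form the set in which calls at the low times can be followed. Among them 187 (15.8%, 95% interval 13.8 to 18.0) were also called at both low times, 557 (47.0%, 44.1 to 49.8) at 12 h only, 8 (0.675%) at 8 h only and 434 (36.6%, 33.9 to 39.4) at neither. In all, 62.7% were called at 12 h and 16.4% at 8 h.

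Regions that 8 h shared with any other time were mostly called at all 6 times, 187 of 215. It shared 201, 205, 203 and 211 regions with 0, 4, 16 and 20 h, and the fewest, 194, with 12 h. Of 335 regions called at 8 h, 194 were also called at 12 h, 21 were shared with 1 or more of the other 4 times but not with 12 h, and 120 were called at 8 h alone. Median ranks at 20 h went from 128 for regions called at both low times through 617 for those also called at 12 h only to 1207.0 for those called at neither. The numbers of regions in these sets moved with the list lengths. With the 337 highest-scoring peaks of each list, 120 regions were called at all 6 times and 5 at the other 4 times alone, and with scores of at least 100 these were 63 and 218. Without the 8 h list 745 regions were called at all remaining times. The number absent at the low times was 991 without the 12 h list and 888 without the 16 h list.

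The 8 regions called at 8 h and all 4 others but not at 12 h lay in LMNA, NEURL1, KSR1 and SCUBE1, at ADM2 and MIOX, and nearest to FRMD8, GLIS2 and CELF4. LMNA encodes lamins A and C of the nuclear envelope, and KSR1 is a scaffold of the MAP kinase cascade. Their 8 h ranks were between 88.0 and 310 of 337. Their 20 h ranks were between 726 and 1527.5, so that none was among the strongest loci at either time.

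Over whole lists, position relative to genes differed little between the low times and the rest, but the difference depended on the cut. A peak was called a gene-end peak when it lay within 1 kb of either end of a RefSeq protein-coding gene, since start and end were not told apart. Gene-end peaks made up 25.8, 23.2, 24.6, 21.3, 25.2 and 19.6% of the lists at 0, 4, 8, 12, 16 and 20 h. The means were 23 ± 2.36% (SD, n = 2) and 23.5 ± 2.77% (n = 4), and the difference of -0.491 percentage points was smaller than the spread between libraries (two-sided exact permutation p = 0.93, adjusted 0.93). It turned positive, 6.49, with scores of at least 100, and 0.297 without 0 h, 1.18 without 12 h and 0.0784 without 16 h. In the 337 highest-scoring peaks of each list the shares were 35.6, 32.6, 24.6, 32.0, 38.3 and 31.2%, the lowest at 8 h. The difference between low times and the rest was then -6.08 points.

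Among the 1186 regions called at all 4 other times, 39.6% (95% interval 32.8 to 46.7) of those also called at both low times were at gene ends. The share was 29.4% (25.8 to 33.4) for those also called at 12 h only and 27.0% (23 to 31.3) for those called at neither. Loci that stayed called at both low times were thus more often at gene ends than those that dropped out, with intervals that did not overlap. They were also the higher-ranked loci and the wider ones, with a median region width of 926 bp against 508 bp for those called at neither. Gene ends were scored on the whole region, which a wider region meets more readily, and the part of width was not tested. Within the first 337 ranks of the 0, 4, 16 and 20 h lists, 49.2, 55.5, 49.6 and 57.1% of gene-end peaks, 46.0, 44.8, 44.4 and 41.8% of other peaks in genes and 42.7, 42.6, 47.0 and 43.1% of peaks outside genes were also called at 8 h, and the intervals of the 3 kinds overlapped in every list.

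Peaks seen at a low time and nowhere else were of another kind. In all, 724 regions were called at a low time and at none of the other 4: 120 at 8 h, 604 at 12 h and 0 at both. Of the 8 h peaks with no overlap at another time, 3.33% were at gene ends, and of those at 12 h 3.81%, against 36.4% and 30.1% of the peaks of the same lists that were shared. For peaks called at 0, 4, 16 or 20 h alone the gene-end shares were 23.5, 20.2, 13.5 and 14.2%, against 26.5, 24.8, 29.8 and 23.9% of shared peaks. The gap between own and shared peaks was thus wider in the low lists, where own peaks made up 35.6 and 33.4%. In the other lists own peaks made up 23.6, 34.9, 28.6 and 44.0%, so their number alone did not set the low lists apart.

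None of the peaks called only at a low time ranked high. The highest had rank 66 of 337 at 8 h and rank 300 of 1808 at 12 h. The 10 with the highest percentile included peaks inside LINGO2 and ADCY2 at 8 h and inside NTRK2 and EVI5 at 12 h, and a gene-end peak of OTP at 12 h. NTRK2 encodes a neurotrophin receptor, ADCY2 an adenylyl cyclase and OTP a homeodomain factor. The other 5 lay outside genes, 1 of them on an unlocalized sequence of chromosome 1 and 1 on chromosome Y, 1407020 bp from the nearest gene. Of the 120 regions of 8 h alone, 5 were off chromosomes 1 to 22 and X, of 21 such regions among all 10736.

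The loci called at all 6 times with the highest mean rank were mostly clock genes. The first was in TEF, a PAR bZIP factor, with ranks 1, 4, 1, 1, 2 and 2 at 0, 4, 8, 12, 16 and 20 h. The next lay outside genes at chr17:8156012-8157452, nearest to VAMP2 at 1695 bp and within 5 kb of PER1, with ranks 2, 4, 2, 2, 4 and 4. DBP and its neighbour CA11, with ranks 3, 2, 3, 3, 1 and 2, and NR1D1, with ranks 4, 4, 4, 4, 3 and 2, followed. These loci were chosen by their mean score percentile over all 6 lists, 8 and 12 h included. Their high ranks at the low times are therefore partly fixed by the choice.

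The remaining 6 of the leading 10 were less uniform in kind. A region at chr17:55236939-55240136 lay outside genes, 23666 bp from STXBP4, its nearest gene, on the side of HLF, and had ranks 6, 1, 5, 12, 5 and 5. At 12 h it was 575 bp wide against 2400 to 3198 bp at 0, 4, 16 and 20 h and 2593 bp at 8 h. ADIRF, a gene induced in fat cell formation, had ranks 7, 7, 7, 6, 6 and 7. CRY2, a region 5079 bp from the cell cycle phosphatase gene CDC25B, the shared start of NR1D2 and NKIRAS1, and BHLHE40 completed the 10.

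Loci of low rank at 20 h could also be called throughout. The lowest ranks at 20 h among the 187 regions were 2071.5 for a region nearest to FZD2, 1677.5 for a gene-end region of RHEBL1, 1506.0 for one nearest to ARID1B, 350132 bp away, and 1165.0 for one in SLC39A1. The others of these 10 were in or near KLHDC4, SCAF11, PSD4, TIAM1, NUBP1 and PUM2, with ranks at 20 h from 730 to 904. At 8 h these 10 regions ranked between 93.0 and 336 of 337, with PUM2 at 93 and PSD4 at 115.

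Core clock genes are given by role, with the highest-ranked peak in the gene or within 5 kb at 0, 4, 8, 12, 16 and 20 h in that order. The lists hold 337 to 6012 peaks, so the same rank is a lower percentile (100 is the highest) in a shorter list. Of the activators, BMAL1 itself had a peak at 20 h alone, at rank 3085.0, CLOCK at 12 h alone, at rank 1161.0, and NPAS2 at 20 h alone, at rank 2435.5. Their own loci were therefore among the weakly bound or uncalled ones at every time.

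Repressors of the PER and CRY families were called at every time. PER1 ranked 2, 4, 2, 2, 4 and 4 by the region near VAMP2, and a further gene-end peak covered its promoter window, printed above, at all 6 times. PER2 ranked 11, 8, 19, 20, 14 and 14. PER3 ranked 15, 12, 16, 5, 10 and 12. The PER genes thus stayed within the first 20 peaks of each list. CRY1 ranked 21, 26, 14, 18, 40 and 35. CRY2 ranked 9, 6, 6, 8, 22 and 6. For CRY1 the ranks at 8 and 12 h were higher in order than those at the other 4 times, and for CRY2 the lowest was at 16 h. By percentile of the list, both genes were lowest at 8 h, CRY1 at 96.0 and CRY2 at 98.4.

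The nuclear receptors that act on the BMAL1 promoter fell into separate groups. NR1D1 ranked 4, 4, 4, 4, 3 and 2, and NR1D2 ranked 8, 9, 9, 7, 11 and 13. RORA, an activator of BMAL1, had ranks 1309.5, 4643.0, 1587.0 and 2264.0 at 0, 4, 16 and 20 h and no peak at 8 or 12 h. These ranks do not follow a single site. The peaks at 0 and 4 h overlapped at chr15:60804951-60805289, and those at 16 and 20 h lay apart, at chr15:60997755-60998147 and chr15:60798742-60799093. RORB had no peak at any time.

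BHLHE40 and BHLHE41, which compete for E-boxes, ranked 24, 14, 11, 11, 15 and 17, and 19, 15, 12, 15, 8 and 11. The BHLHE41 peak was a region away from its ends, and its gene-end peaks were called at the 4 other times and at neither low time. Of the PAR bZIP factors, DBP and TEF have been given above, and HLF ranked 350, 283, 248, 201, 156 and 201. For HLF, rank 248 at 8 h was percentile 26.6 with a score of 54.4, and rank 350 at 0 h was percentile 89.7. NFIL3, the repressor that shares their sites, had no peak at any time. DBP, TEF, HLF and both BHLHE genes were thus called at every time, HLF at lower ranks than the others.

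CIART ranked 778, 619, 84, uncalled, 232 and 674. Rank 84 at 8 h was percentile 75.2 of its list, and rank 778 at 0 h was percentile 77.1. The 4 h rank of 619 was that of a peak at chr1:150286434-150286998, near the other end of the gene from the promoter. The 8 h peak was not at the promoter window printed above but downstream of it, at chr1:150283023-150283882, in a region shared with 4 h, where it ranked 2738.0. The promoter window itself, with its 3 E-boxes, was covered at 0, 4, 16 and 20 h and not at the low times. CIART was thus a clock gene whose promoter binding was not called at 8 and 12 h.

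**Figure D3:**
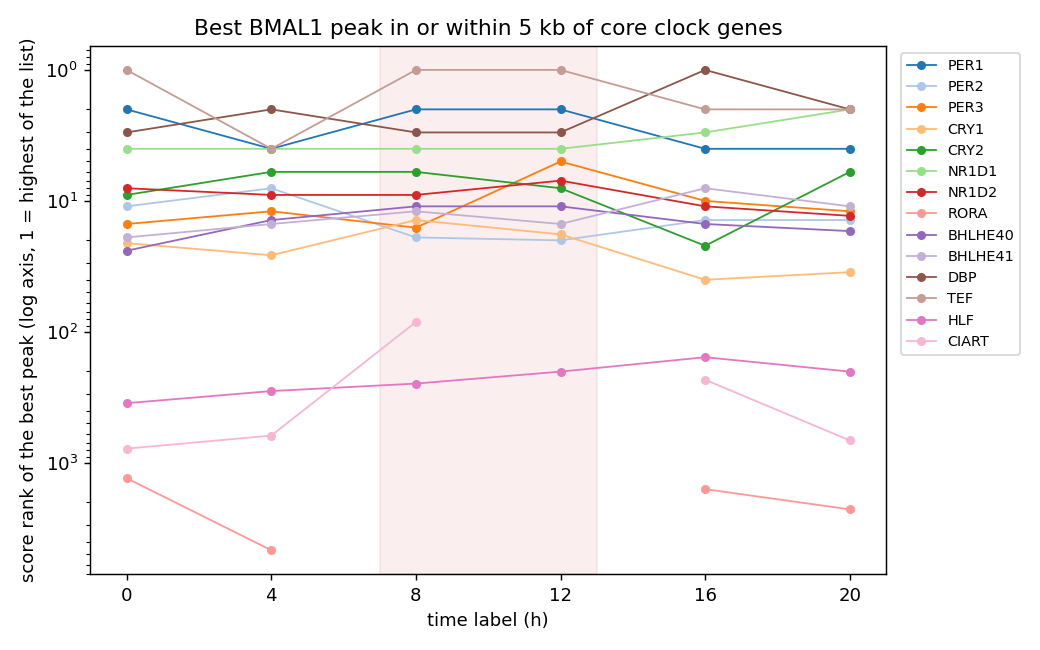
Rank of the highest-scoring BMAL1 peak in or within 5 kb of 14 core clock genes at each time label (log axis, 1 is the highest of a list), all of them called at 4 or more times; a gap means no peak. The shaded band marks 8 and 12 h, where the genes of the first 30 ranks keep their places, while RORA has no peak. The lists hold 337 to 6012 peaks, so the same rank is a lower percentile in a shorter list. The CIART points at 4 and 8 h are separate regions downstream of its promoter, and the RORA points come from more than 1 site.

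Counted over the list, 11 core clock genes had a peak of rank 30 or better at 0, 4, 8 and 12 h, and 10 at 16 and 20 h. The median best rank of the called genes was 15, 12, 11, 9.50, 14 and 14. The called genes numbered 15, 15, 13, 14, 15 and 17, in lists of 337 to 6012 peaks. These medians therefore do not compare the strength of binding between times. A gene-end peak was called for 13, 13, 10, 10, 12 and 14 of the 20 genes. It was called at 1 or more times for 14 (70.0%), against 11.1% of all 20037 protein-coding genes, and at all 6 times for 9 (45%), against 0.394%. With peaks in the gene or within 5 kb, these were 18 (90%) against 26.0%, and 11 (55.0%) against 0.878%. Only BHLHE41 (5.00%) had a gene-end peak at the 4 other times and at neither low time, against 0.684% of all genes. Of the 12 core clock genes that had such a peak at 0, 4, 16 and 20 h, 10 (83.3%) had one at 12 h and 10 at 8 h. Of the 421 such genes in all, 278 (66.0%) had one at 12 h and 85 (20.2%) at 8 h. The clock genes were chosen as known targets, and the comparison is a description.

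The other gene lists are given beside the shares of all 20037 protein-coding genes, of which 11.1% had a gene-end peak at any time, 0.394% at all 6 times and 97 genes at 8 h. Of 16 clock kinases, ligases and cofactors, 5 (31.2%) had a gene-end peak at any time and 0 at all 6. CSNK1E, a kinase that phosphorylates PER proteins, had one at 0, 4, 12 and 20 h, TIMELESS and SIRT1, a deacetylase, at 4 and 20 h, and EP300, an acetyltransferase, at 16 and 20 h. None of the 16 was called at 8 h. With peaks within 5 kb, 9 of the 16 had one at any time.

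Of 19 clock output and NAD genes, 6 (31.6%) had a gene-end peak at any time, and 10 with peaks in the gene or within 5 kb. KLF11, a zinc finger repressor, was called at all 6 times, and NAMPT, the rate-limiting enzyme of NAD salvage, at all but 8 h. KLF9, a glucocorticoid-responsive zinc finger factor, was called at 0, 4, 16 and 20 h. KLF10 had a gene-end peak at 4 and 20 h, besides a region inside the gene called at the 4 other times.

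Dexamethasone itself acts through the glucocorticoid receptor, and 10 (45.5%) of 22 glucocorticoid-induced genes had a gene-end peak at any time, against 11.1% of all genes. PER1 was called at all 6 times, and CEBPB at all but 8 h. The list's counts were 4, 9, 2, 3, 5 and 8 at 0, 4, 8, 12, 16 and 20 h, and those of all genes were 1004, 1362, 97, 433, 770 and 1292.

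Among 25 genes of ribosome biogenesis and other MYC targets, 15 (60.0%) had a gene-end peak at any time, 11, 12, 2, 6, 6 and 11 at the 6 times. CDK4, a cyclin-dependent kinase, and RRP9, an snoRNP protein, were called at all 6, and LDHA and BOP1 at all but 8 h. MYC binds the same E-box. Of 25 lysosome and autophagy genes, 9 (36.0%) had one at any time and 0 at 8 h. UVRAG, FNIP1 and LAMP1 were called at every time but 8 h, and CTSA at 0, 4, 12 and 20 h. Of 18 glycolysis and glucose uptake genes, 7 (38.9%) had one at any time and 0 at 8 h, with LDHA at 5 times, PKM at 0, 4, 16 and 20 h, and HK2 and GAPDH at 4 and 20 h. In each of these lists the 8 h count was the lowest, as it was for all genes.

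Fewer genes of the remaining lists were bound. Of 23 cell cycle genes, 4 (17.4%) had a gene-end peak at any time and 0 at 8, 12 or 16 h: CDK6 at 4 and 20 h, WEE1 and BUB1 at 0 h, and AURKA at 4 h. Of 21 cytosolic ribosomal protein genes, 5 (23.8%) had one, with RPL27 at 0, 4, 16 and 20 h, RPL23 at 0 and 20 h, and RPL18 at 4 h. Of 11 osteoblast genes, 2 (18.2%) had one, COL1A1 at 16 h and SPP1 at 0 h, and 5 had a peak in the gene or within 5 kb. Of 16 marker genes of other cell types, 2 (12.5%) had one: SNAP25 at all but 8 h and HBB at 20 h. The share over all genes was 11.1%.

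The strongest loci that dropped out at both low times were not those of the core loop. Nearest to RUNX2, the master factor of bone formation, at 57166 bp, a region at chr6:45608248-45609526 had ranks 388, 127, 196 and 240 at 0, 4, 16 and 20 h. MOGAT1, an acyltransferase, had ranks 277, 123, 509 and 226, and IGSF8 had ranks 382, 207, 459 and 85. The ranks of these regions lay between 85 and 509, the range in which the 12 h list went from nearly complete to thin.

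Further regions were similar in rank. COLEC11 had ranks 780, 329, 63 and 167, a wide spread, and DNAH17 had ranks 348, 458, 352 and 317. RBM15, an RNA-binding protein of the RNA methylation complex, had ranks 318, 673, 317 and 208. DGLUCY, whose promoter is printed above, had ranks 243, 608, 305 and 457. KLF10, a zinc finger factor, had ranks 417, 427, 324 and 328. The shared start of ALDH6A1 and LIN52 had ranks 390, 436, 401 and 243. The highest rank of any of these regions was 63. The 10 leading loci called at all 6 times, chosen for high scores over all 6 lists, were among the first 24 throughout.

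Neighbouring times were not shown to share more regions than distant ones. The Jaccard index, the regions shared by a pair of lists as a fraction of those in either, was taken on the 337 highest-scoring peaks of each list. It had a mean of 0.474 ± 0.141 over the 6 pairs of times 4 h apart on a 24 h circle and 0.451 ± 0.113 over the 9 pairs farther apart (SD over pairs, which share libraries). The difference of 0.0229 did not pass the test (one-sided exact permutation over 720 orders, p = 0.17, adjusted 0.33, smallest possible 0.017). It turned negative, -0.0366, without 0 h, -0.0193 without 16 h and -0.00871 without 20 h. On whole lists the mean was 0.210, 0.178 and 0.169 for times 4, 8 and 12 h apart.

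The 8 h list had the lowest indices at equal size. That size takes the 8 h list whole, low-scoring peaks included, and only the highest-scoring part of each other list. At equal size, the 5 pairs with 8 h had a mean index of 0.301 and lay between 0.287 and 0.312, and the 10 pairs without it had a mean of 0.539 and lay between 0.483 and 0.635. The groups of pairs did not overlap, and 8 h was no closer to its neighbour 12 h (0.287) than to 20 h (0.305), the farthest time. The highest index, 0.635, was that of 0 and 4 h. With 8 h left out and the size of the 12 h list, the mean index was 0.414, 0.363 and 0.345 for times 4, 8 and 12 h apart. The place of the 12 h list depended on the size taken. On the 337 highest-scoring peaks its indices with 0, 4, 16 and 20 h were 0.526, 0.563, 0.530 and 0.512, within the range of the pairs of those 4 times. On its full size they were 0.295, 0.318, 0.283 and 0.308, all below the 6 pairs of those times, which lay between 0.367 and 0.514. Each low list thus had the lowest indices among the lists compared at the size that took it whole. Whether 8 h differed beyond that was not tested.

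**Figure D4:**
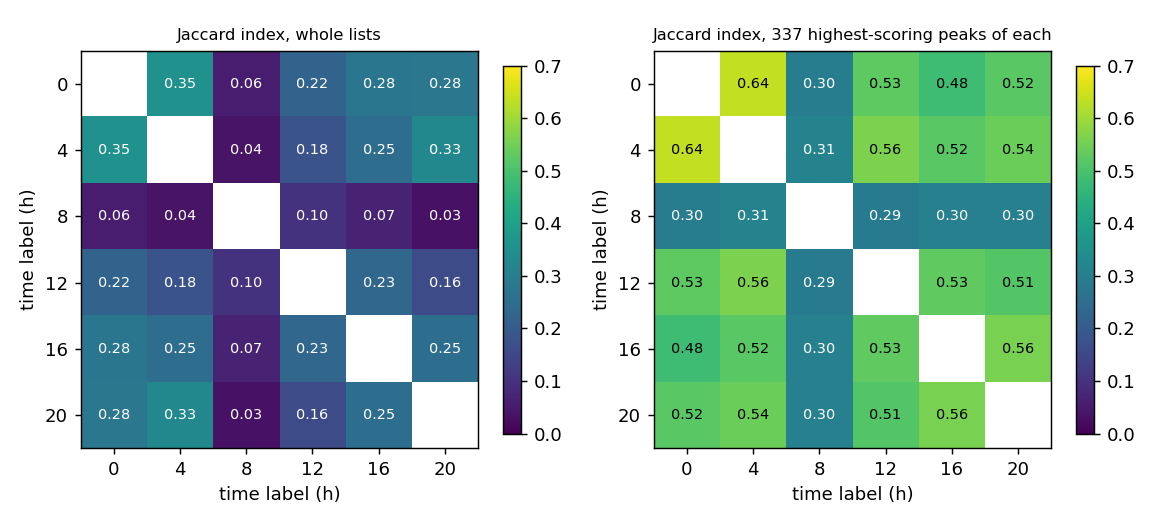
Jaccard index of each pair of the 6 BMAL1 lists by time label, on whole lists (left) and on the 337 highest-scoring peaks of each (right), both on the colour scale from 0 to 0.7. On the right the 8 h list is taken whole and the others are cut. The row and column of 8 h are the darkest in both, and on the right the 12 h values of 0.512 to 0.563 lie within the range of the pairs of 0, 4, 16 and 20 h, which they do not at the larger size of the 12 h list.

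Within shared regions the ranks followed each other at every pair of times. Spearman's rho of the ranks lay between 0.62 (0 and 16 h, 1326 regions) and 0.76 (8 and 12 h, 194 regions). These are correlations across regions, which are not independent replicates, and the numbers of shared regions differ. The pairs with 8 h had values of 0.67 to 0.76, so the order of loci still called at 8 h was kept as in the other lists.

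E-boxes were counted in 35116 RefSeq promoter windows like those printed above, of which 7.26% held CACGTG. Among windows overlapped by a peak the share was 41.8, 42.0, 47.3, 53.8, 43.0 and 35.0% at 0, 4, 8, 12, 16 and 20 h, with 948, 1288, 93, 379, 712 and 1240 windows. The mean was 50.6 ± 4.61% at the low times (SD, n = 2) and 40.4 ± 3.66% at the others (n = 4). Both low times were above all 4 others, by 10.1 percentage points (two-sided exact permutation p = 0.13, the smallest possible, adjusted 0.33). The difference was gone at equal list size, -1.77, where the shares were 58.1, 53.3, 47.3, 57.4, 56.6 and 48.4%, and with scores of at least 100, -0.290.

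The share of windows with an E-box went up with the number of times at which the window was covered. It was 5.64% of 32976 windows covered at no time, 20.4% of 1059 at 1 time, 33.5% of 409 at 2, 39.4% of 231 at 3, 46.9% of 196 at 4 and 68.3% of 164 at 5 (95% interval 60.8 to 74.9). At all 6 times it was lower again, 48.1% of 81 (37.6 to 58.9). Windows of 1 gene or of neighbouring genes can overlap, so they are not independent. Windows with 2 or more E-boxes made up 0.309, 2.17, 3.42, 9.09, 9.69, 22.6 and 21.0% from 0 to 6 times. A comparison motif of the same kind, CAGCTG, was found in 18.1, 13.3, 16.4, 14.3, 17.9, 15.2 and 19.8%, with no such course.

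**Figure D5:**
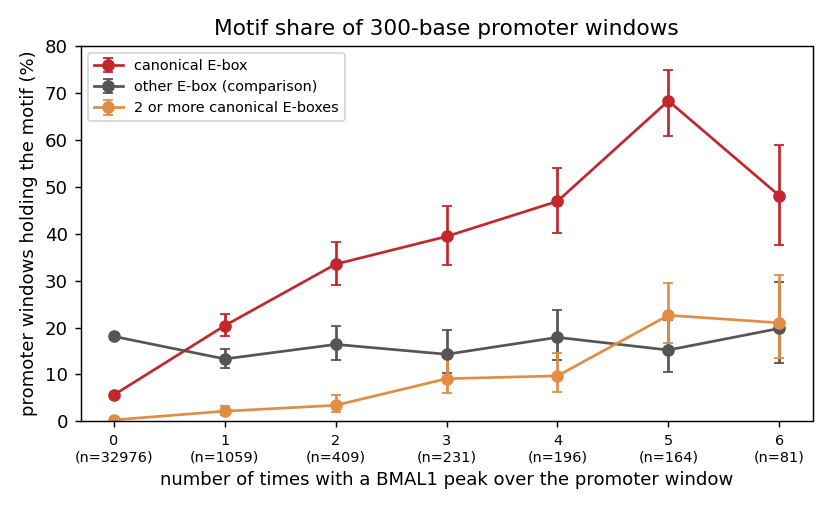
Percent of 300-base RefSeq promoter windows that hold the canonical E-box CACGTG, 2 or more of it, or the comparison motif CAGCTG, by the number of times at which a BMAL1 peak overlapped the window (n below the axis). Bars are Wilson 95% intervals for counting error; the canonical E-box goes from 5.64% at 0 times to 68.3% at 5 and 48.1% at 6, while the comparison motif stays between 13.3 and 19.8%.

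By class, the windows covered at all 4 other times and 12 h but not 8 h held an E-box most often, in 109 of 157 (69.4%, 61.8 to 76.1). Those covered at all 6 times held one in 39 of 81, and those covered at the 4 other times only in 53 of 132 (40.2%, 32.2 to 48.7). When windows were instead assigned by the merged region over them, the shares were 110 of 200 (55.0%, 48.1 to 61.7) for regions called at the 4 other times and 12 h only, 44 of 91 (48.4%, 38.4 to 58.5) for those called at all 6 times and 53 of 129 (41.1%, 33.0 to 49.7) for those called at neither low time. The intervals then overlapped, so the higher share of the first class depended on how windows were assigned. Of the 20 windows covered at 12 h alone, 0 held an E-box (upper bound of the 95% interval 16.1%). For windows covered at 0, 4, 16 or 20 h alone the share was 15.5, 30.3, 19.8 and 14.7%.

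Rank classes were also taken apart. Among promoter peaks at ranks 1 to 337, the share also called at 8 h was 40.6, 46.2, 44.8 and 53.2% with an E-box and 60.5, 64.1, 65.0 and 62.5% without, for the 0, 4, 16 and 20 h lists. The intervals overlapped in each list, and the median ranks were 203, 162, 182 and 175 with an E-box and 122, 128, 144 and 176 without. Among promoter peaks beyond rank 1000, the share also called at 12 h was 21.3, 17.1, 25 and 27.0% with an E-box and 10, 8.48, 9.70 and 10.1% without. It was higher with an E-box in 4 of 4 lists in that class, with intervals that did not overlap. No such difference was seen higher up: at ranks 338 to 1000 the 12 h shares were 46.6, 61.2, 54.4 and 58.9% with an E-box and 50.7, 58.0, 41.0 and 57.1% without, and at ranks 1 to 337 they were 93.8, 98.1, 93.1 and 91.5% against 94.7, 97.4, 92.5 and 90%, with overlapping intervals in each list. For calls at 8 h, the direction at ranks 338 to 1000 was opposite to that at ranks 1 to 337, with 10.2, 10, 8.86 and 16.4% with an E-box and 7.25, 4.35, 7.23 and 7.94% without, and the intervals again overlapped. The peaks with an E-box were also the higher-ranked ones beyond rank 1000, with median ranks of 1788.0, 2551.0, 1614.5 and 2643.8 against 2237.5, 3141.0, 1876.0 and 3269.0, and the part of rank in the difference was not tested. All 4 lists were set against the same low list.

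Most E-boxes of covered windows lay within 100 bp of a peak centre at every time. The median distance from the motif to the centre of the peak over its window was 49.8, 41.5, 57.5, 34.0, 54.5 and 61.0 bp at 0, 4, 8, 12, 16 and 20 h, and 76.9, 78.8, 69.1, 85.5, 74.1 and 69.8% of the motifs were within 100 bp. The distance was smallest at 12 h, where the peaks were narrowest, and the 8 h value rests on 55 motifs. The windows were taken for overlapping a peak, and any motif inside a narrow peak lies near its centre. Placement beyond that was not tested. Several clock promoters covered at all 6 times hold no CACGTG in their windows, among them DBP, NR1D1 and PER2. This says only that these letters are not in those 300 bases.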

How the data were processed

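Per the labels, chromatin of U2OS cells was cross-linked, sonicated and precipitated with an antibody to BMAL1, and the sequencing used DNA nanoballs. HOMER 4.10.3, MACS 1.4.2, bedtools and genome build hg38 are named, per the submitters' processing notes, with no role given. Not given in the sources used here are the aligner, read depth, filters and calling control, so the depth behind each list is unknown. The deposited files are 1 peak list per library, with chromosome, start, end and score. This deposited score is a value of the authors whose definition is not stated. The lowest in the 6 lists is 50.0, and it was used for ranks and filters inside 1 list, never across lists.

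Overlap meant at least 1 bp, and merged regions joined overlapping peaks of the 6 lists. Genes (20037 protein-coding) and promoter windows came from RefSeq tables of GRCh38.p14, the same assembly as hg38. That promoter table does not hold every gene, and 1 of 217 list symbols was not in the gene table. The motifs searched on both strands were CACGTG and, added after seeing the data, CAGCTG and CACGTT. The rank classes and the splits of them by E-box and by position were added then too. CACGTT was found in 5.11 to 17.3% of windows covered at 0 to 6 times.

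The 4 tests were exact permutations over libraries with Benjamini-Hochberg adjustment, and intervals are Wilson 95% intervals. The members and the 11 gene lists were chosen with earlier results of these data known. Named were all core clock genes, the 10 leading regions called at all 6 times, at the 4 other times alone or at a low time alone by mean score percentile, the 10 lowest-ranked at 20 h among those called at all 6 times, and up to 4 members of each other list by number of times. Results for 4 genes that this rule names are left out. The regions called at 8 h and all 4 others but not 12 h were named after their values were seen. Alternatives tried were equal list size, a score minimum of 100, whole lists, chromosomes 1 to 22 and X, centres within 500 bp or 50% of the shorter peak shared, a 5 kb window, and each time left out. Scripts were tested on simulated data, and bedtools 2.31.1 gave the same overlap counts for 30 of 30 ordered pairs. The scripts ran under Python 3.11.15 with SciPy 1.17.1, NumPy 2.4.6 and, for plots, matplotlib 3.10.9.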

Additional observations from a re-analysis of the deposited data

How the results depend on the processing

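No difference between the low times and the rest, and no difference between neighbouring and distant times, passed its test under the main settings. The tests of low times against the rest could not have passed, since the smallest exact permutation p of 2 libraries against 4 is 0.13. The E-box share difference reached that value. The width difference (136 bp) was -78.5 bp at equal list size and ran from -131 to 404 bp with each time left out. The gene-end share difference (-0.491 percentage points) was 6.49 with scores of at least 100 and -6.08 at equal list size. With each time left out it ran from -2.16 to 1.18, with positive values of 0.297 without 0 h, 1.18 without 12 h and 0.0784 without 16 h. The E-box share difference (10.1 points) was -0.290 with scores of at least 100 and -1.77 at equal list size, and kept its direction with each time left out. Neighbour similarity (0.0229) ran from -0.0366 to 0.0972 with each time left out, negative without 0 h, 16 h (-0.0193) and 20 h (-0.00871). Its exact permutation p was 0.050 without 12 h, which does not pass a threshold of under 0.05. The regions called at all 6 times (187) numbered 63 with scores of at least 100, 120 at equal size and 187 to 745 with each time left out. The regions absent at both low times (434) numbered 218, 5 and 442 to 991. Shorter lists hold fewer regions by construction; other causes were not tested. No paired analysis was possible because each time has 1 library and all times are of 1 line. Unknown read depth limits every count of peaks.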
